A study of Mus musculus with 10 samples.

Results

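Chemokine ligands were read across 3 populations of mouse endothelial cells. The members are the 39 rows of the count table, of 23284 rows in all, whose gene symbol is Ccl, Cxcl, Xcl or Cx3cl followed by a number and, for some, a letter from a to e. The rule used only names and no measured value. The libraries came from lymph node lymphatic endothelium (LN-LEC, n = 4), the blood endothelium of the same kinds of nodes (LN-BEC, n = 3) and diaphragm lymphatic endothelium (D-LEC, n = 3). All mice were C57BL/6 (B6) animals aged 6 to 8 weeks, without treatment or engineered allele in the labels. Mesenteric, cervical, brachial, axillary and inguinal nodes were pooled for the lymph node samples, and cells of several mice entered each library, so that the spread between libraries describes pools of animals. Tissue was digested, cells bearing CD45 were depleted, and CD45- CD31+ cells were sorted with PDPN (podoplanin) separating LEC from BEC. The values are counts of sequenced fragments per gene, divided here by a size factor for each library (normalised counts), and are listed in the order of the replicate numbers.

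Chemokines are small secreted proteins that guide the movement of leukocytes through G protein-coupled receptors. In lymph nodes the ligands of CCR7 (CCL19 and CCL21), of CXCR4 (CXCL12) and of CXCR5 (CXCL13) bring T cells, dendritic cells and B cells into the tissue and place them in their zones. Other ligands are induced by interferons or by NF-kB and recruit effector T cells, monocytes or neutrophils to inflamed tissue, and atypical receptors bind chemokines without classical signalling and clear or transport them. Endothelial cells display chemokines on their surface sugars, where rolling or crawling leukocytes meet them.

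The libraries held 22429940 to 48906070 counted fragments, and 3 fragments corresponded to 0.0613 to 0.134 CPM (a count scaled to a common library total). All 6 LEC markers were higher in both LEC populations than in LN-BEC, and all 4 BEC and all 5 high endothelial venule markers were higher in LN-BEC than in either LEC population. LN-LEC replicate 4 and LN-BEC replicate 3 stood apart from the other libraries of their populations, and LN-BEC replicate 3 had the highest LEC marker sum of its population (10199 against 4850.4 and 3239.6). RNA of other cells was measured in each sort. The summed level of 7 markers of fibroblastic reticular cells and pericytes was 4132 to 7500.0 in LN-LEC, 2463 to 8105 in LN-BEC and 2534 to 7520.0 in D-LEC, with no marker at 0. Ptprc, which encodes CD45, was 33.7 to 50.8, 208 to 324 and 9.09 to 21.4 in the same order, and 10 T and NK cell markers summed to 279.7 to 293, 442 to 777 and 111 to 160.2, with Lck alone at 207 to 245, 89.3 to 176 and 94.2 to 137 and Ncr1 at 0 in every LEC library. The 4 B cell markers summed to 337 to 485, 568 to 849 and 13.2 to 40.4. In bulk samples, fewer cells of a type and less RNA per cell cannot be told apart.

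7 members could not be read from this table or gave no fragment. The genes of the CCR7 ligands lie in a repeated region of chromosome 4, and fragments that mapped to several places or overlapped 2 gene symbols were not counted. In the annotation of the files (mm9), all exon bases of Ccl21a also belonged to Gm1987, and all exon bases of Ccl21b and Ccl21c belonged to each other and to Gm10591 and Gm13304. Every 100-base window of the exons of Ccl19, Ccl21a, Ccl21b, Ccl21c and Ccl27b occurred at a second place of the mouse genome (NCBIM37). Ccl21a, Ccl21b and Ccl21c were listed at 0 in all 10 libraries, and the 3 Gm rows were at 0 as well. Under these rules a 0 says nothing about the level of the CCL21 RNA. The second coding exon shows how little separates the copies. It is shown here for 3 copies on its coding strand (NCBIM37, coding exons of Gencode vM1), with the base that differs between the copies in capitals. The regions are chr4:42787175-42787295 on the minus strand, chr4:41774434-41774554 on the plus strand and chr4:42392733-42392853 on the minus strand.
Ccl21a: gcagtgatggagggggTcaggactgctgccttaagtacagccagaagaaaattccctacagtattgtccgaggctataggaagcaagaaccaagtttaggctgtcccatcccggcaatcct
Ccl21b: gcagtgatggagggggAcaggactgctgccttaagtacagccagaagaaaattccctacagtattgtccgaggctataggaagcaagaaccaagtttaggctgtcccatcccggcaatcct
Ccl21c: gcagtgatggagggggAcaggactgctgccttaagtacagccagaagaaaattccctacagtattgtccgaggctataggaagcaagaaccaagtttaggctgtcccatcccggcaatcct
Of these 121 bases, 1 differed between Ccl21a and the other two, and over the 399 coding bases 2 differed. The Ccl21a exon occurred at 2 places of the chromosome without a mismatch, and that of Ccl21b and Ccl21c at 4.

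Beside these 3, Ccl27b was at 0 in every library with all of its exon bases shared with other symbols, among them Il11ra2, and Ccl1, Ccl26 and Ccl28 were at 0 without such an overlap. A count of 0 allows a level of up to 0.0613 to 0.134 CPM in a library for Ccl1 and Ccl26. Ccl28 lay on an unplaced contig of chromosome 13, and its windows were not read. Cxcl3 had 2 fragments in all LN-LEC libraries, 2 in LN-BEC and none in D-LEC, and stayed below the mean normalised count of 1 that a gene needed in at least 1 population. The other 31 members were tested, among 15326 genes in all. Of Ccl27a, 50.8% of the windows had a second copy, and its value rests on the remaining exon bases. Cxcl16 shared 14.8% of its exon bases with Zmynd15, where fragments were not counted.

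Both lymph node populations expressed more of the ligand genes at a higher level than D-LEC did. At an adjusted p under 0.05, 13 of the 31 tested members were higher in LN-LEC than D-LEC, beside 24.1% of all genes tested. Ccl27a and Cxcl17 were higher in D-LEC, beside 21.7% of all genes. LN-BEC had 14 members above D-LEC and 4 below it (Ccl2, Ccl7, Ccl27a and Cxcl17), beside 25.6% and 22.5% of all genes. Between the lymph node populations 6 members were higher in LN-LEC and 5 in LN-BEC, shares near those of all genes (19.8% and 18.4%). The members higher in LN-LEC were Ccl2, Ccl7, Ccl20, Ccl24, Cxcl10 and Cxcl16, and those higher in LN-BEC were Ccl3, Ccl4, Cx3cl1, Cxcl11 and Cxcl12. The median log2 fold change over the tested members was 1.77 for LN-LEC minus D-LEC, 2.52 for LN-BEC minus D-LEC and -0.06 for LN-LEC minus LN-BEC, and it was 1.69, 1.99 and -0.06 with members at 0 in one population set at the bound that 3 fragments give. The libraries did not overlap for 15 members in LN-LEC and 3 in D-LEC as the higher population (all genes 25.3% and 24.7%), for 15 with LN-BEC and 4 with D-LEC higher (29.0% and 27.0%), and for 6 in LN-LEC and 5 in LN-BEC (22.4% and 22.5%). Over all genes tested the median log2 fold changes, in the order above, were 0.03, 0.05 and -0.01. The small counts turned on single libraries. Of the 2 members above LN-LEC in D-LEC, 0 passed the test of edgeR without D-LEC replicate 1, where 2 had an unadjusted p under 0.05, and 1 passed without LN-LEC replicate 1, 2 or 4. The number above LN-LEC in LN-BEC was 3 without LN-BEC replicate 3, and the number above LN-BEC in D-LEC was 2 without D-LEC replicate 2. In all, 22 tested members differed in at least 1 comparison, 5 in all 3 (Ccl20, Cx3cl1, Cxcl10, Cxcl12 and Cxcl16) and 9 in none.

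**Figure D1:**
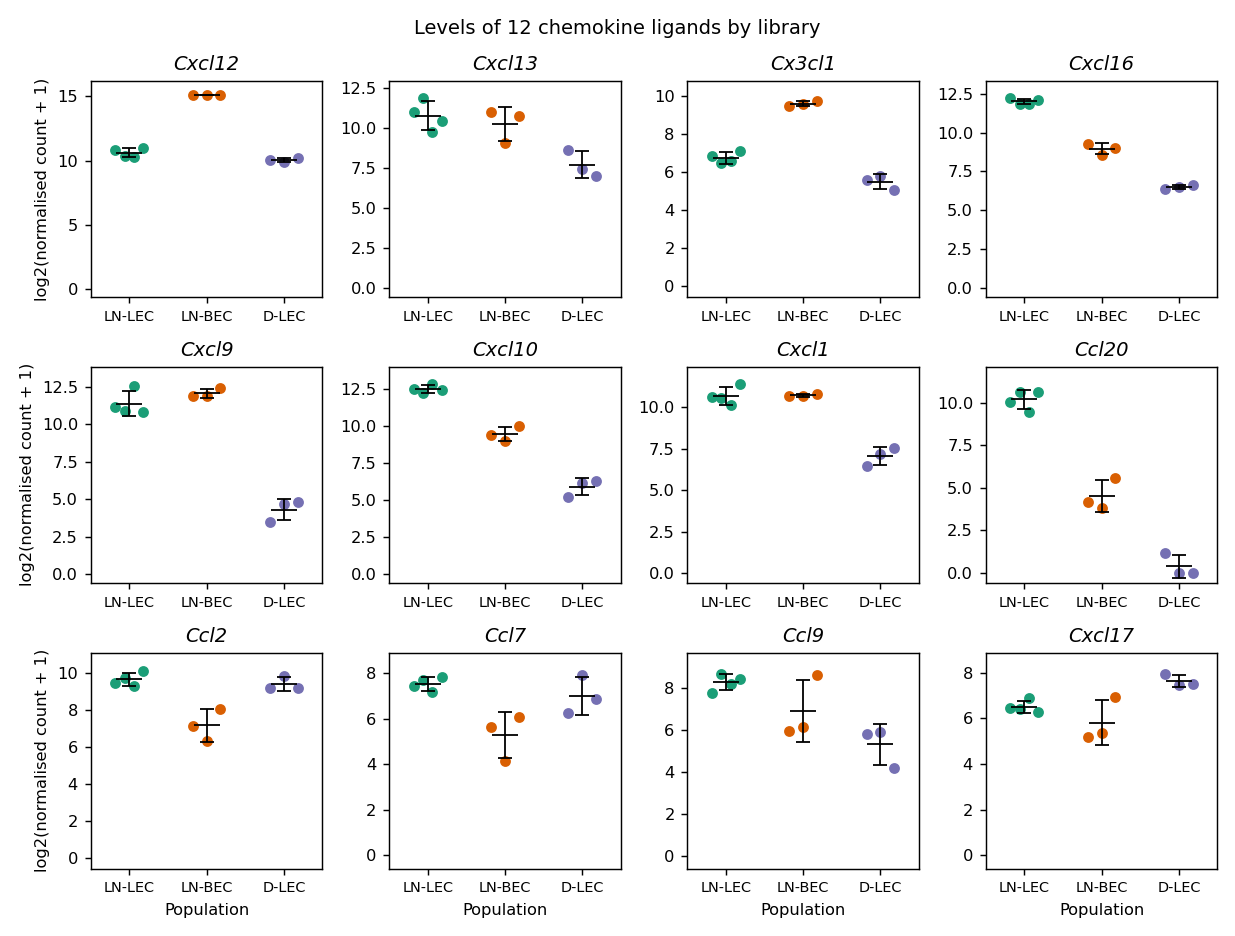
Levels of 12 chemokine ligands, as log2(normalised count + 1), in each library of LN-LEC (4 points), LN-BEC (3 points) and D-LEC (3 points), with the mean and SD as black bars. Cxcl12 and Cx3cl1 were highest in LN-BEC, Cxcl10, Cxcl16 and Ccl20 in LN-LEC and Cxcl17 in D-LEC, while Ccl2 was low in LN-BEC only.

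The RNA of CXCL12, the ligand of CXCR4 and of the atypical receptor ACKR3, was highest in LN-BEC among the 3 populations. In mm9 its gene spans chr6:117118553-117131386. The normalised counts of Cxcl12 were 35465, 36076 and 34789.8 in LN-BEC, 1839, 1301, 1245 and 2037 in LN-LEC and 1092, 945 and 1168 in D-LEC. All LN-BEC libraries lay far above every LEC library, and every LN-LEC library was above every D-LEC library. The means were 35444 ± 644 (SD, n = 3), 1606 ± 393 (n = 4) and 1068 ± 113 (n = 3), which gave 21.8-fold more in LN-BEC than LN-LEC (log2 LN-LEC minus LN-BEC of -4.45 ± 0.17, adjusted p = 8.09e-10), 33.3-fold more in LN-BEC than D-LEC (log2 LN-BEC minus D-LEC of 5.06 ± 0.20, adjusted p = 5.33e-10) and 1.53-fold more in LN-LEC than D-LEC (log2 LN-LEC minus D-LEC of 0.61 ± 0.16, adjusted p = 0.00749). The summed fibroblastic reticular cell and pericyte markers were 8105, 2463 and 7124 in LN-BEC, and their part in its Cxcl12 level was not tested. The BEC marker Flt1 was 150.4 to 255 in LN-LEC, 39.1 to 86.8 in D-LEC and 13648 to 15297 in LN-BEC, and the part of BEC RNA in the Cxcl12 level of the LEC libraries was not tested.

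CXCL13 attracts B cells and follicular helper T cells through CXCR5. Cxcl13 counts were 2032, 3784, 874 and 1403 in LN-LEC, 2001, 522 and 1709.9 in LN-BEC and 394, 174 and 126 in D-LEC. Both lymph node populations exceeded D-LEC without overlap, and among themselves they overlapped. LN-LEC exceeded D-LEC 9.03-fold (log2 LN-LEC minus D-LEC of 3.17 ± 0.76, adjusted p = 0.0108) and LN-BEC exceeded D-LEC 6.24-fold (log2 LN-BEC minus D-LEC of 2.64 ± 0.77, adjusted p = 0.0243). No difference between LN-LEC and LN-BEC passed the test (log2 LN-LEC minus LN-BEC of 0.53 ± 0.66, adjusted p = 0.579). The call of LN-BEC over D-LEC was lost without LN-BEC replicate 1, LN-BEC replicate 3, D-LEC replicate 2 or D-LEC replicate 3 (adjusted p = 0.0696, 0.0585, 0.0802 and 0.0814), and without D-LEC replicate 1 the log2 differences from D-LEC were 3.76 for LN-LEC and 3.23 for LN-BEC. Cr2, a marker of follicular dendritic cells and B cells, was 582, 990.2, 323 and 568 in LN-LEC, 566, 378 and 363 in LN-BEC and 99.6, 140.3 and 155 in D-LEC. In LN-LEC its libraries had the order of Cxcl13, and in D-LEC they had the reverse order. Fcer2a, of the same marker list, also had the order of Cxcl13 in LN-LEC (47.96, 52.05, 26.01 and 42.12). In LN-BEC it was 103, 121 and 64.1, highest where Cxcl13 was lowest. Clu, also of that list, was 99614 to 121564 in LN-LEC, highest in replicate 1. The fibroblastic reticular and pericyte markers were lowest in the LN-BEC library where Cxcl13 was lowest (2463). In LN-LEC their sum was 7500.0, 4990.4, 4132 and 6859, lowest in replicate 3 like Cxcl13 but highest in replicate 1, where Cxcl13 was not highest. In D-LEC it was 7520.0, 2534 and 4742, highest in replicate 1 like Cxcl13 but lowest in replicate 2, where Cxcl13 was not lowest. The part of such cells in the Cxcl13 values was not tested.

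Ccl19, a ligand of CCR7, could be read only from the few fragments placed uniquely in its duplicated gene. Its counts were 34.998, 12.7, 15.8 and 15.1 in LN-LEC, 15.8, 4.32 and 8.403 in LN-BEC and 0 in each D-LEC library. The lymph node populations overlapped and both lay above D-LEC. Set against 3 fragments over the D-LEC group, Ccl19 was at least 19.7-fold higher in LN-LEC and at least 9.498-fold higher in LN-BEC (adjusted p = 3.21e-04 and 0.00156 by edgeR), and LN-LEC did not pass the test against LN-BEC (adjusted p = 0.217). Without D-LEC replicate 3 these bounds were 11.7 and 5.67. Without LN-BEC replicate 1 the mean of LN-BEC fell, and the fitted log2 difference from D-LEC was 5.69 in place of 6.30, values that depend on the prior count of the fit. Since most of its fragments could not be counted, these values say nothing about the level of Ccl19 beside other genes.

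The 2 chemokines made as membrane proteins went in opposite directions between the lymph node populations. CX3CL1 (fractalkine) holds and attracts cells that carry CX3CR1. Cx3cl1 counts were 711, 786 and 878 in LN-BEC, 117, 87.6, 93.9 and 139 in LN-LEC and 47.9, 55.1 and 32.2 in D-LEC. The 3 populations did not overlap. LN-BEC exceeded LN-LEC 7.095-fold (log2 LN-LEC minus LN-BEC of -2.83 ± 0.19, adjusted p = 3.74e-08) and D-LEC 17.7-fold (log2 LN-BEC minus D-LEC of 4.15 ± 0.23, adjusted p = 3.59e-09), and LN-LEC exceeded D-LEC 2.5004-fold (log2 LN-LEC minus D-LEC of 1.32 ± 0.21, adjusted p = 1.87e-04).

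The RNA of CXCL16, the ligand of CXCR6 and a scavenger receptor of oxidised lipids, was highest in LN-LEC. Cxcl16 counts were 4799, 3702, 3720.1 and 4335 in LN-LEC, 627, 377 and 522 in LN-BEC and 83.2, 90.2 and 97.5 in D-LEC. Again no library of one population reached those of another. LN-LEC exceeded LN-BEC 8.23-fold (log2 LN-LEC minus LN-BEC of 3.04 ± 0.16, adjusted p = 1.03e-08) and D-LEC 46.2-fold (log2 LN-LEC minus D-LEC of 5.53 ± 0.19, adjusted p = 1.44e-10), and LN-BEC exceeded D-LEC 5.61-fold (log2 LN-BEC minus D-LEC of 2.49 ± 0.18, adjusted p = 1.30e-07). Zmynd15, whose exons overlap those of Cxcl16, had 869 to 1099 in LN-LEC, 40.3 to 85.1 in LN-BEC and 12.6 to 15.7 in D-LEC. Counting ignored strand, and the part of Zmynd15 fragments in the Cxcl16 values was not tested.

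The ligands of CXCR3, the receptor of type 1 effector T cells and NK cells, were each distributed differently between the lymph node populations. They lie side by side on chromosome 5, in the order Cxcl9, Cxcl10 and Cxcl11 within 41.97 kb. Cxcl10 counts were 5970.4, 4865, 7298 and 5528 in LN-LEC, 687, 511 and 1017 in LN-BEC and 36.6, 71.1 and 77.7 in D-LEC. Every LN-LEC library was above every LN-BEC library, and every LN-BEC library above every D-LEC library. The folds were 8.11-fold for LN-LEC over LN-BEC (log2 LN-LEC minus LN-BEC of 3.02 ± 0.28, adjusted p = 1.95e-05), 94.6-fold for LN-LEC over D-LEC (log2 LN-LEC minus D-LEC of 6.56 ± 0.36, adjusted p = 3.20e-07) and 11.7-fold for LN-BEC over D-LEC (log2 LN-BEC minus D-LEC of 3.54 ± 0.33, adjusted p = 1.56e-05).

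Its neighbour Cxcl9, which interferon-gamma induces, was high in both lymph node populations. Cxcl9 counts were 2315, 1902, 6127 and 1799 in LN-LEC, 3799, 3753 and 5463 in LN-BEC and 10.1, 24.05 and 26.4 in D-LEC. LN-LEC replicate 3 was above the range of LN-BEC and the other LN-LEC libraries were below it. Both lymph node populations lay above D-LEC, by 145-fold for LN-LEC (log2 LN-LEC minus D-LEC of 7.18 ± 0.71, adjusted p = 7.77e-05) and 205-fold for LN-BEC (log2 LN-BEC minus D-LEC of 7.68 ± 0.73, adjusted p = 5.44e-05). Without LN-LEC replicate 3 the log2 difference of LN-LEC minus D-LEC was 6.58. The difference between LN-LEC and LN-BEC did not pass the test (log2 LN-LEC minus LN-BEC of -0.50 ± 0.46, adjusted p = 0.444).

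Cxcl11, the last of these neighbours, was low and mainly found in LN-BEC. The authors describe it as a pseudogene in C57BL/6, the strain used here, so the values describe RNA and not a ligand made. Cxcl11 counts were 38.5, 47.6 and 37.8 in LN-BEC, 1.296, 6.35, 1.13 and 2.51 in LN-LEC and 0, 0 and 4.13 in D-LEC. LN-BEC did not overlap either LEC population. LN-BEC exceeded LN-LEC 14.2-fold (log2 LN-LEC minus LN-BEC of -3.83 ± 0.71, adjusted p = 6.09e-04) and D-LEC 24.3-fold (log2 LN-BEC minus D-LEC of 4.60 ± 0.84, adjusted p = 4.66e-04). Without D-LEC replicate 3, the one D-LEC library with a Cxcl11 fragment, D-LEC was at 0 and the fitted difference of 8.38 rests on the prior count, and without LN-LEC replicate 2 the log2 difference from LN-LEC was -4.43. The order of the populations thus differed between these neighbours, with Cxcl10 highest in LN-LEC and Cxcl11 highest in LN-BEC.

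Among the ligands of CXCR2, which guides neutrophils, Cxcl1 was the one with a mean above 100. Cxcl1 counts were 1589, 1499, 1116 and 2682 in LN-LEC, 1629.9, 1602 and 1781 in LN-BEC and 85.8, 141 and 185 in D-LEC. The lymph node populations overlapped, and D-LEC lay below both. LN-LEC was 12.5-fold above D-LEC (log2 LN-LEC minus D-LEC of 3.65 ± 0.36, adjusted p = 3.54e-05) and LN-BEC was 11.99-fold above D-LEC (log2 LN-BEC minus D-LEC of 3.58 ± 0.37, adjusted p = 4.22e-05), while LN-LEC minus LN-BEC was 0.06 ± 0.30 on the log2 scale (adjusted p = 0.900). Cxcl2 ranged from 6.01 to 49.7 over all libraries and passed no test. Cxcl5 was 5.19 to 11.6 in LN-BEC against 3 fragments in all D-LEC libraries, a ratio of 8.502 with an exact Poisson interval of 2.91 to 41.2 for the counting error of D-LEC (adjusted p = 0.0400), a call lost without LN-LEC replicate 2, LN-BEC replicate 1, LN-BEC replicate 3, D-LEC replicate 2 or D-LEC replicate 3 (adjusted p up to 0.115). Without D-LEC replicate 1 the fitted log2 difference was 3.92 in place of 2.91. Cxcl15 was at most 11.6 in a library.

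Cxcl1, Cxcl2 and Cxcl3 sit in 1 cluster on chromosome 5 and carry the same run of bases shortly before their start sites, although only Cxcl1 was expressed at a high level. The 120 bases upstream of each RefSeq start (GRCm38.p6, plus strand) are shown to compare them, with matches to the NF-kB consensus and, in Cxcl3 alone, to the TATA box in capitals. The regions are chr5:90891125-90891244 for Cxcl1, chr5:90903779-90903898 for Cxcl2 and chr5:90785981-90786100 for Cxcl3.
Cxcl1: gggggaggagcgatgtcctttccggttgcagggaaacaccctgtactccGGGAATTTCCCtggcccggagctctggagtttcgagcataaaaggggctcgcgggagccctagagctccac
Cxcl2: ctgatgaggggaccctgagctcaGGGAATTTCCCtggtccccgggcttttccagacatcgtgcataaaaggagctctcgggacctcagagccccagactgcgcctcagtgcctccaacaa
Cxcl3: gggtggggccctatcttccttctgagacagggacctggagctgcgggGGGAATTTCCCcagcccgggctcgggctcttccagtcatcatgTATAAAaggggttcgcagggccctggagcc
The 11 capital bases nearest the left end hold 2 overlapping NF-kB matches, 1 on each strand, and were identical in the 3 promoters, while the mean normalised counts of Cxcl1, Cxcl2 and Cxcl3 in LN-LEC were 1722 ± 672, 24.8 ± 17.9 and 0.648 ± 1.296 (SD, n = 4). Per kilobase of exon the means of Cxcl1 and Cxcl2 in LN-LEC were 1814 and 22.9. A match of letters is a description of the sequence and not a bound site.

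The CC ligands that recruit monocytes, T cells and NK cells, among them those of CCR1, held several values that depended on 1 library. CCL5 (RANTES) is made by activated T and NK cells and by endothelium. Ccl5 counts were 37.6, 43.2, 99.5 and 75.4 in LN-LEC, 109, 124 and 82.98 in LN-BEC and 12.6, 1.002 and 1.65 in D-LEC. D-LEC lay below both lymph node populations, which overlapped. LN-LEC was 13.97-fold above D-LEC (log2 LN-LEC minus D-LEC of 3.80 ± 0.65, adjusted p = 3.56e-04) and LN-BEC 22.6-fold above it (log2 LN-BEC minus D-LEC of 4.50 ± 0.66, adjusted p = 1.03e-04), and without D-LEC replicate 1 these log2 differences were 5.47 and 6.16. The summed T and NK cell markers given above had the same order of populations, with Nkg7 at 1.296 to 11.4 in LN-LEC, 39.4 to 93.5 in LN-BEC and 0 to 0.826 in D-LEC. Their part in the Ccl5 values was not tested.

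Ccl9, a ligand of CCR1, counted 215, 399, 288 and 344 in LN-LEC, 61.3, 68.3 and 384 in LN-BEC and 55.5, 58.1 and 17.4 in D-LEC. LN-LEC exceeded D-LEC 7.37-fold without overlap (log2 LN-LEC minus D-LEC of 2.88 ± 0.78, adjusted p = 0.0155), a call that was lost without D-LEC replicate 3 (adjusted p = 0.0562). In LN-BEC replicate 3 it was at the level of LN-LEC, and in the other two LN-BEC libraries it was near D-LEC. Ccl3, Ccl4 and Ccl6, which recruit monocytes and T cells, were also highest in that library. Ccl3 was 1.75, 13.8 and 196 in LN-BEC and at most 8.17 in any LEC library, and Ccl4 was 0.875, 1.73 and 30.5 in LN-BEC and 0 in each LN-LEC library. Both passed the test of LN-BEC over LN-LEC (adjusted p = 0.0439 and 0.0271), Ccl4 at least 14.8-fold higher against 3 fragments over the LN-LEC group. Ccl3 also passed that of LN-BEC over D-LEC, where it had 3 fragments in all (ratio 70.7, exact Poisson interval 24.2 to 343, adjusted p = 0.0313). Without LN-BEC replicate 3 the adjusted p was 0.433 for Ccl3 and 0.155 for Ccl4 against LN-LEC, and 0.127 for Ccl3 against D-LEC, where its ratio was 7.797. The bound of Ccl4 was then at least 1.75-fold. The calls of Ccl3 were also lost without single LEC libraries (against LN-LEC without LN-LEC replicate 1, 2 or 3 or any one D-LEC replicate, adjusted p up to 0.0999, and against D-LEC without any one D-LEC replicate, adjusted p up to 0.103), and that of Ccl4 without LN-LEC replicate 4 (adjusted p = 0.0534, at least 8.98-fold). Ccl6 was 16.6, 21.6 and 99.8 in LN-BEC, 0 to 20.1 in LN-LEC and 14.05 to 50.5 in D-LEC, and passed no test. In LN-BEC replicate 3 the 3 neutrophil markers summed to 369, against 70.03 and 204 in the other LN-BEC libraries, and Elane, an enzyme of neutrophil precursors, was 66.2 against 1.75 and 0.865. The part of these cells in the values was not tested.

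Ccl2 and Ccl7, ligands of CCR2 that attract monocytes, were expressed by both LEC populations and less by LN-BEC. Ccl2 counts were 709, 873, 631 and 1126 in LN-LEC, 588, 937 and 594 in D-LEC and 139, 78.7 and 269 in LN-BEC. The LEC populations overlapped, and all LN-BEC libraries were below them. LN-LEC exceeded LN-BEC 5.27-fold (log2 LN-LEC minus LN-BEC of 2.40 ± 0.42, adjusted p = 0.00167), D-LEC exceeded LN-BEC 4.39-fold (log2 LN-BEC minus D-LEC of -2.13 ± 0.43, adjusted p = 0.00325), and LN-LEC minus D-LEC was 0.26 ± 0.37 on the log2 scale (adjusted p = 0.601).

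Ccl7, the gene next to Ccl2 on chromosome 11, had the same order of populations. It counted 169.8, 204, 141 and 224 in LN-LEC, 75.7, 239 and 115 in D-LEC and 49.02, 16.4 and 65.1 in LN-BEC. The LN-BEC libraries were again the lowest, and D-LEC replicate 2 was above every LN-LEC library. LN-LEC exceeded LN-BEC 4.33-fold (log2 LN-LEC minus LN-BEC of 2.11 ± 0.48, adjusted p = 0.00467) and D-LEC exceeded LN-BEC 3.32-fold (log2 LN-BEC minus D-LEC of -1.73 ± 0.50, adjusted p = 0.0144), the latter not called without D-LEC replicate 2 (log2 -1.14, adjusted p = 0.0519). D-LEC replicate 2 was also the highest D-LEC library of Ccl2 and Ccl8. In it the 6 myeloid markers of the table summed to 882, against 498 and 514 in the other D-LEC libraries and 267 to 362 in LN-LEC. Most of this was Cd68, at 306, 650 and 397 in D-LEC. Lyz2 was 112, 163 and 72.7, and Csf1r was 71.9, 60.1 and 43.0, highest in replicate 1. The rest were at most 6.31 in a D-LEC library. The part of myeloid cells in the Ccl2, Ccl7 and Ccl8 values was not tested.

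The ligands of CCR3, the receptor of eosinophils, differed among themselves. Ccl11 (eotaxin) counted 163, 99.02, 89.3 and 162 in LN-LEC, 301, 91.7 and 364 in LN-BEC and 74.4, 9.02 and 34.7 in D-LEC. LN-BEC lay above D-LEC by 6.57-fold (log2 LN-BEC minus D-LEC of 2.72 ± 0.70, adjusted p = 0.0107), and without D-LEC replicate 1 by 3.49 on the log2 scale. LN-LEC did not pass the test against D-LEC (log2 LN-LEC minus D-LEC of 1.77 ± 0.67, adjusted p = 0.0573), although no library overlapped, a pattern that 25.3% of all genes tested showed in this direction. The fibroblastic reticular and pericyte markers summed to 7500.0, 4990.4, 4132 and 6859 in LN-LEC, 8105, 2463 and 7124 in LN-BEC and 7520.0, 2534 and 4742 in D-LEC. The libraries of LN-LEC and those of D-LEC had the same order by Ccl11 as by this sum, and LN-BEC replicate 2 was lowest by both. The part of these cells in the Ccl11 values was not tested.

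Ccl24 (eotaxin-2) was highest in LN-LEC, at 69.996, 41.9, 32.8 and 33.9 against 0 to 4.201 in LN-BEC and 2.52 to 6.61 in D-LEC. No LN-LEC library was reached by another population. It was 26.5-fold above LN-BEC (log2 LN-LEC minus LN-BEC of 4.73 ± 0.73, adjusted p = 1.34e-04) and 8.48-fold above D-LEC (log2 LN-LEC minus D-LEC of 3.08 ± 0.63, adjusted p = 0.00111), and without LN-BEC replicate 3, which left 1 fragment in LN-BEC, the fitted log2 difference from LN-BEC was 6.33. Ccl12, a mouse ligand of CCR2, was 3.77 to 11.3 in LN-LEC and 0 in each D-LEC library, at least 8.26-fold higher against 3 fragments over the group (adjusted p = 0.00654 by edgeR) and at least 4.93-fold without D-LEC replicate 3. Ccl8 reached 61.1 in LN-LEC and passed no test.

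Ccl20, the ligand of CCR6 on B cells, dendritic cells and Th17 cells, was expressed by LN-LEC and hardly found in D-LEC. Its counts were 1082, 1591, 702 and 1610.0 in LN-LEC, 16.6, 12.97 and 46.2 in LN-BEC and 1.26, 0 and 0 in D-LEC, where 1 fragment was counted in all. The 3 populations did not overlap. Over that single fragment the mean of LN-LEC was 3740.3-fold higher, with an exact Poisson interval of 671 to 147735 that covers the counting error of D-LEC only (adjusted p = 3.94e-06 by edgeR). LN-LEC exceeded LN-BEC 51.4-fold (log2 LN-LEC minus LN-BEC of 5.68 ± 0.49, adjusted p = 1.41e-05), and LN-BEC was above D-LEC (ratio 75.8, interval 13.6 to 2996, adjusted p = 0.00815). Without LN-BEC replicate 3, its highest LN-BEC library, the log2 difference of LN-LEC minus LN-BEC was 6.39, and that of LN-BEC minus D-LEC was 5.05 in place of 5.75. The LEC markers summed to 4850.4, 3239.6 and 10199 in LN-BEC, the same order of libraries as Ccl20. The part of LEC RNA in the Ccl20 values of LN-BEC was not tested. Without D-LEC replicate 1, which held the single fragment, the fitted log2 differences from D-LEC were 13.37 and 7.68 and rest on the prior count. Ccl17 and Ccl22, ligands of CCR4 made by dendritic cells, and Xcl1, the ligand of XCR1 made by NK and CD8 T cells, stayed at or below 8.17 in every library and passed no test.

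Cxcl17 and Ccl27a, ligands known from mucosa and skin, were the 2 members that passed the test as higher in D-LEC than LN-LEC. CXCL17 is a mucosal chemokine-like protein that attracts macrophages and dendritic cells. Cxcl17 counts were 245, 176 and 179 in D-LEC, 88.1, 83.8, 119 and 77.3 in LN-LEC and 35.01, 39.8 and 122 in LN-BEC. D-LEC lay above every other library. The difference was 2.14-fold from LN-LEC (log2 LN-LEC minus D-LEC of -1.10 ± 0.36, adjusted p = 0.0263) and 3.06-fold from LN-BEC (log2 LN-BEC minus D-LEC of -1.61 ± 0.40, adjusted p = 0.00529). The first call was lost without LN-LEC replicate 1, 2 or 4 or D-LEC replicate 1 (adjusted p = 0.0611, 0.0631, 0.0637 and 0.0982), and without LN-BEC replicate 3 the second log2 difference was -2.40. In D-LEC the 4 mesothelial markers summed to 1448, 562 and 1751 and the 5 skeletal muscle markers to 853, 1079 and 1196, against 25.4 to 76.5 and 1.27 to 11.9 in LN-LEC. Cxcl17 and the mesothelial sum were both lowest in D-LEC replicate 2, where Cxcl17 (176) was close to replicate 3 (179). Cxcl17 was highest in D-LEC replicate 1, as were the mesothelial genes Msln (371, 103 and 354) and Wt1 (213, 62.1 and 199.96). The other mesothelial genes, Upk3b (638, 298 and 917) and Krt19 (226, 99.2 and 280), were highest in D-LEC replicate 3, as was the sum. The part of these cells was not tested.

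CCL27 is a ligand of CCR10 known from keratinocytes. Ccl27a counts were 213, 179 and 168 in D-LEC, 121, 129, 124 and 123 in LN-LEC and 113, 144 and 135 in LN-BEC, from the part of its exons that has no second copy. D-LEC lay above the other populations by 1.48-fold (log2 LN-LEC minus D-LEC of -0.56 ± 0.17, adjusted p = 0.0127) and 1.42-fold (log2 LN-BEC minus D-LEC of -0.51 ± 0.18, adjusted p = 0.0304). Without D-LEC replicate 1 neither call passed (adjusted p = 0.0586 and 0.108), and the second was also lost without LN-BEC replicate 1 or D-LEC replicate 2 (adjusted p = 0.116 and 0.0529). Ccl25, the ligand of CCR9 in gut and thymus, ranged from 24.05 to 66.1, and Cxcl14, a chemokine of epithelia, from 4.01 to 40.4, and neither passed a test.

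**Figure D2:**
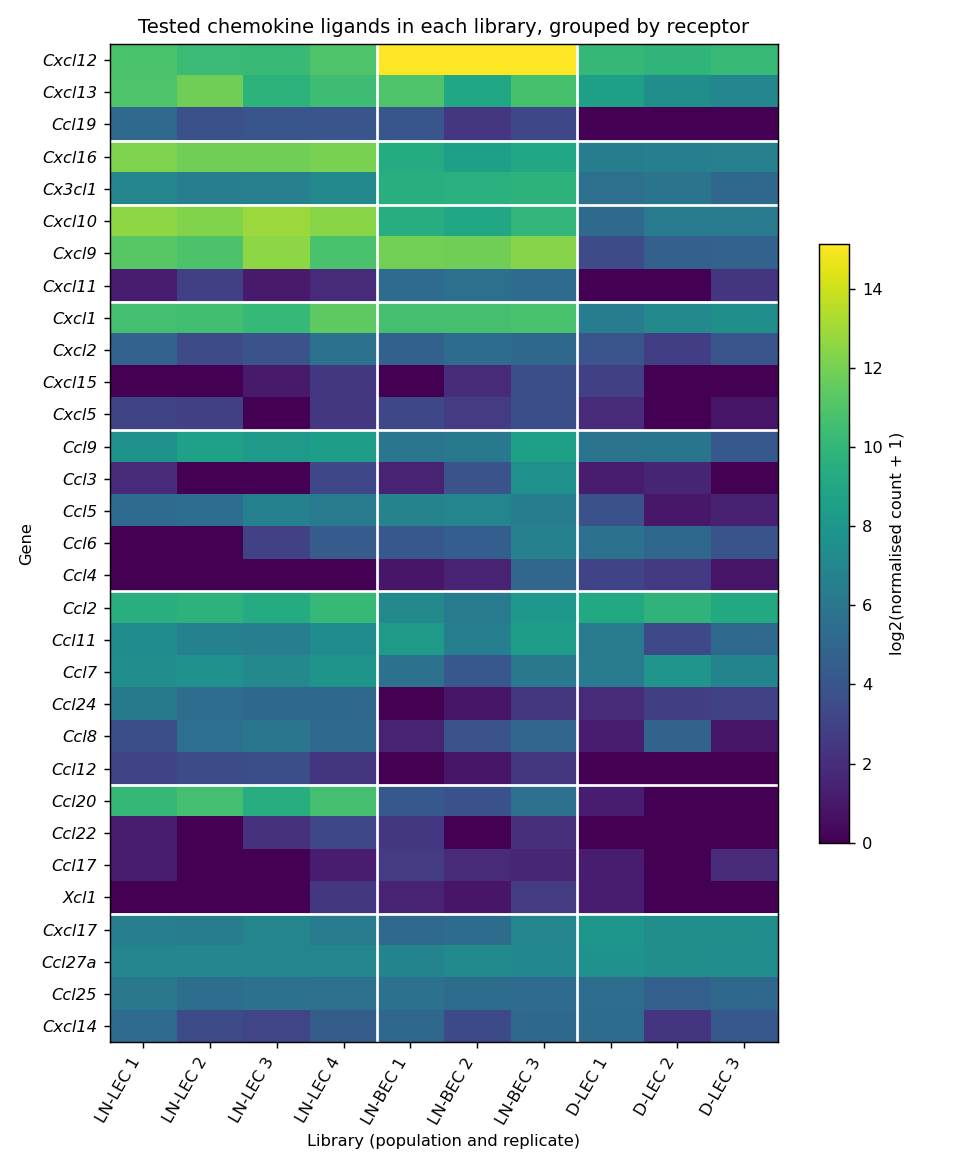
The 31 tested chemokine ligands (rows, grouped by receptor or kind, white lines between groups) in the 10 libraries (columns), coloured by log2(normalised count + 1). The CXCR3 ligands Cxcl9 and Cxcl10 and the CXCR2 ligand Cxcl1 stand out in the 7 lymph node libraries, and Cxcl12 in the 3 LN-BEC libraries.

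The make-up of the ligand pool differed between the populations. To compare genes, normalised counts were divided by exon length, and each member's level per kilobase was set against the sum over all members in the same library. LN-LEC had a sum of 15529 ± 589 (SD, n = 4), LN-BEC one of 11805 ± 1640.2 (n = 3) and D-LEC one of 2223 ± 289 (n = 3), and every D-LEC library was below every lymph node library. In LN-LEC the largest share of this pool was Cxcl10 (34.8% ± 6.96). Cxcl1 (11.6% ± 4.08), Cxcl13 (11.2% ± 6.95), Cxcl16 (10.9% ± 1.49) and Ccl20 (9.93% ± 3.22) followed within each other's spread, ahead of Cxcl9 (6.81% ± 4.82) and Ccl2 (6.63% ± 1.48). In LN-BEC Cxcl12 took 42.6% ± 6.77, ahead of Cxcl1 (15.04% ± 1.41), Cxcl9 (12.6% ± 1.49) and Cxcl13 (9.98% ± 5.12). In D-LEC Ccl2 led with 39.03% ± 6.57, ahead of Cxcl17 (11.98% ± 2.71), Cxcl13 (8.97% ± 5.54) and Ccl7 (7.86% ± 3.81). The pool leaves out the CCL21 genes and nearly all of Ccl19, so the shares are those of the readable members only. Ccl27a (5.77% ± 0.877 in D-LEC) was divided by its full exon length, although 50.8% of its windows had a second copy. Its share can therefore be too low. The order also depends on the division by length, since by mean normalised count Cxcl12 (1068) was above Ccl2 (706) in D-LEC.

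**Figure D3:**
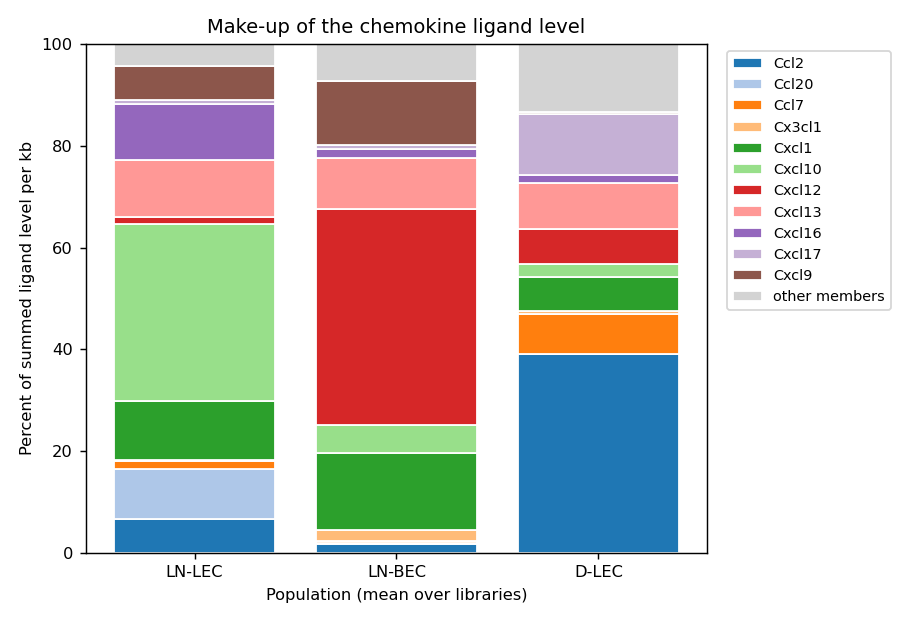
Mean share of each chemokine ligand in the summed ligand level per kilobase of exon (percent, y axis) in LN-LEC (n = 4), LN-BEC (n = 3) and D-LEC (n = 3), with members outside the 6 largest of every population in grey. Cxcl10 was the largest part in LN-LEC, Cxcl12 in LN-BEC and Ccl2 in D-LEC.

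Neighbouring ligand genes often had different patterns. In the cluster of 6 genes over 144 kb of chromosome 11 (mm9), Ccl2 and Ccl7 were lowest in LN-BEC, Ccl11 had its highest mean in LN-BEC, Ccl12 and Ccl8 were low and Ccl1 was at 0. In the second cluster of that chromosome, 5 genes over 139 kb, Ccl9 had its highest mean in LN-LEC and Ccl5, Ccl6, Ccl3 and Ccl4 had theirs in LN-BEC. Without LN-BEC replicate 3 the LN-BEC means of Ccl6 and Ccl4 were 19.1 and 1.302, below the D-LEC means of 32.9 and 4.47. The 5 CXCR2 ligand genes over 147 kb of chromosome 5 held 1 gene expressed at a high level, Cxcl1. On chromosome 8, Cx3cl1 lay between Ccl22 and Ccl17 within 66.4 kb, and both of these neighbours were near 0 in all populations while Cx3cl1 was 792 ± 83.8 (SD, n = 3) in LN-BEC.

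Promoters were read for 27 of the 39 members from RefSeq (GRCm38.p6), and the 250 bases before each start were searched on both strands. The NF-kB consensus had a match in 25.9% of them (Ccl1, Ccl9, Ccl20, Cxcl1, Cxcl2, Cxcl3 and Cxcl10), beside 8.23% of all 27025 genes with a promoter. The matches of Cxcl1, Cxcl2 and Cxcl3 lie in the identical run shown above and are not separate instances. TATAAA, the TATA box, was found in 37.04% beside 14.3%, and GAAANNGAAA, the core of the interferon-stimulated response element, in 11.1% (Ccl19, Cxcl10 and Cxcl14) beside 3.46%. TTCNNNGAA, the gamma-activated sequence, was found in 7.41% (Ccl17 and Cxcl14) beside 8.13%. With tested genes only, the NF-kB consensus was in 23.8% of members beside 10.9% of genes, and TATAAA in 38.1% beside 9.62%. The core of the response element was then in 14.3% beside 3.23%, and the gamma-activated sequence in 9.52% beside 7.31%. These shares are descriptions of letters, and no match says only that the letters are not in this window. Cxcl9, whose fitted differences from D-LEC were larger than those of Cxcl10, held TATAAA as its one match to the 4 motifs. The promoters of 3 members, chosen after their values were seen, are shown with matches in capitals, Cxcl10 for its several matches, Ccl20 for the largest fitted difference between LN-LEC and D-LEC and Cxcl12 for its level in LN-BEC. They are Cxcl10 on the minus strand over 220 bases (chr5:92348890-92349109), Ccl20 on the plus strand over 120 (chr1:83116646-83116765) and Cxcl12 on the plus strand over 120 (chr6:117168415-117168534).
Cxcl10: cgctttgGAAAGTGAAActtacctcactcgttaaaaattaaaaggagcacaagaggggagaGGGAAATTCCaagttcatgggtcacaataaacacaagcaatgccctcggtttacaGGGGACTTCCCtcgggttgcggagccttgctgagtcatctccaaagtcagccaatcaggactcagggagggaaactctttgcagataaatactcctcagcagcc
Ccl20: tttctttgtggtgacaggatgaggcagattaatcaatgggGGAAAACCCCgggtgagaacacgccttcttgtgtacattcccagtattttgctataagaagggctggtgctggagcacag
Cxcl12: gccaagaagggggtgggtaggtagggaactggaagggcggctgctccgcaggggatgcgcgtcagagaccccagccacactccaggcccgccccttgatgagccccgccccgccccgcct
Capitals in Cxcl10 mark, from left to right, the core of the response element and the NF-kB matches, those in Ccl20 mark an NF-kB match, and the Cxcl12 stretch, the promoter of the gene with the highest LN-BEC level, held no match to the 4 motifs.

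Of 17 receptors that signal to chemokines and are given here, 15 were tested. Against D-LEC, 5 passed the test in LN-LEC, each as higher (all genes 24.1%), and in LN-BEC 7 were higher and 1 lower (all genes 25.6% and 22.5%). Between the lymph node populations, 2 were higher in LN-LEC and 4 in LN-BEC (all genes 19.8% and 18.4%). The receptors above D-LEC in LN-BEC included Ccr2, Ccr6, Ccr7 and Cxcr2 of leukocytes. Ptprc and the T and B cell marker sums given above were also highest in LN-BEC, and their part in these calls was not tested. Cxcr4, the receptor of CXCL12, was the one with a mean above 500, at 2291, 2220.0 and 1815 in LN-BEC, 89.4, 90.1, 52.01 and 98.7 in LN-LEC and 30.3, 17.03 and 10.7 in D-LEC. The populations did not overlap, and LN-BEC, where Cxcl12 was highest, exceeded LN-LEC 25.02-fold (log2 LN-LEC minus LN-BEC of -4.64 ± 0.22, adjusted p = 9.50e-09).

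The atypical receptors, which bind chemokines without classical signalling, were distributed by population. Some are listed under older symbols, and all 6 were tested. Against D-LEC, 3 were higher and 2 lower in LN-LEC (all genes 24.1% and 21.7%). In LN-BEC 4 were higher and 2 lower than in D-LEC (25.6% and 22.5%). Between the lymph node populations 2 were higher in LN-LEC and 3 in LN-BEC (19.8% and 18.4%). Ccrl2 was 289 to 413 in LN-LEC, 483 to 509 in LN-BEC and 75.7 to 124 in D-LEC. Pitpnm3 was 5.08 to 14.5, 238 to 246 and 8.83 to 11.6 in that order. Ackr1, listed as Darc, transports chemokines across venules and was 6092, 8172 and 7324 in LN-BEC, 386, 326, 384 and 402 in LN-LEC and 8.83, 3.01 and 2.48 in D-LEC. Ackr4, listed as Ccrl1, scavenges the CCR7 ligands and was 7382, 6469, 6062 and 12966 in LN-LEC, 306, 137 and 506 in LN-BEC and 83.2, 89.2 and 109 in D-LEC. Neither overlapped between the lymph node populations, with 18.97-fold more in LN-BEC for Ackr1 (log2 LN-LEC minus LN-BEC of -4.25 ± 0.14, adjusted p = 9.83e-11) and 26.4-fold more in LN-LEC for Ackr4 (log2 LN-LEC minus LN-BEC of 4.72 ± 0.52, adjusted p = 1.41e-04). Ackr2, listed as Ccbp2, clears inflammatory CC chemokines such as CCL2. It was 10161, 9149 and 9982 in D-LEC, 3891, 3639.6, 3928 and 4954 in LN-LEC and 1200.1, 1338 and 1084 in LN-BEC. Ackr3, listed as Cxcr7, takes up CXCL12. It was 11647, 13811 and 10354 in D-LEC, 2254, 1758, 1417 and 2855 in LN-LEC and 1721, 1149 and 1823 in LN-BEC. D-LEC thus had the highest level of both, 2.34-fold above LN-LEC for Ackr2 (log2 LN-LEC minus D-LEC of -1.23 ± 0.11, adjusted p = 6.36e-07) and 5.68-fold for Ackr3 (log2 LN-LEC minus D-LEC of -2.50 ± 0.25, adjusted p = 2.33e-05).

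Genes of the pathways that induce chemokines were read from lists of names. Of 7 regulators of the interferon-gamma response, 6 passed the test of LN-LEC against D-LEC and 6 that of LN-BEC against D-LEC, each as higher in the lymph node population, beside 24.1% and 25.6% of all genes tested. Irf1, a factor that interferon-gamma induces, was 2181 to 3095 in LN-LEC, 3604 to 3710.0 in LN-BEC and 659.7 to 909 in D-LEC. Between the lymph node populations 4 of the 7 were higher in LN-LEC, and 3 in LN-BEC (Ifngr1, Irf1 and Jak2), beside 19.8% and 18.4%. Jak1, a kinase of the interferon receptors, was 42128 to 45255 in LN-LEC, 14438 to 15956 in LN-BEC and 7470.4 to 7907 in D-LEC. Irf8 was 3913 to 4953, 459.6 to 746 and 614 to 909. Socs1, which restrains the pathway, was 422 to 619, 178 to 210.1 and 45.1 to 52.98, and Ifngr2, a chain of the interferon-gamma receptor, was 14339 to 17631, 10969 to 12333 and 4325 to 5022. Of 12 NF-kB regulators, 9 passed the test of LN-LEC against D-LEC, each as higher in LN-LEC (all genes 24.1%), and against D-LEC 9 were higher and 1 lower in LN-BEC (all genes 25.6% and 22.5%). Between the lymph node populations 6 of the 12 were higher in LN-LEC and 2, the TNF receptors Tnfrsf1a and Tnfrsf1b, in LN-BEC (all genes 19.8% and 18.4%). Nfkb2 and Relb, the factors of the noncanonical arm, were 4927 to 5179.7 and 2199.6 to 2701 in LN-LEC, 3305 to 3935 and 1236 to 1576 in LN-BEC and 749 to 884 and 341 to 405 in D-LEC. For both genes no population overlapped another. Tnfrsf11a, which encodes the receptor RANK, was 17267 to 37361 in LN-LEC, 4703 to 9408 in LN-BEC and 4804 to 10165 in D-LEC. Map3k14, the kinase NIK that RANK and LTBR act through, was 760.4 to 907, 361 to 387 and 141 to 208 in that order. Ltbr, the lymphotoxin beta receptor, was 1186 to 1480.1, 1419 to 1538 and 976 to 1022. Tnfaip3 and Nfkbia, inhibitors that NF-kB induces, were 3609 to 4155 and 11299 to 14421 in LN-LEC, 1699 to 1946 and 12149 to 15387 in LN-BEC and 622 to 787 and 7351 to 8829 in D-LEC. Nfkb1 was 3098 to 3730.3 in LN-LEC, 2467 to 2599.5 in LN-BEC and 2751 to 3599.8 in D-LEC, the one gene of the list that passed the test as lower in LN-BEC than D-LEC.

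Proteases that act on chemokines were found in every population. Adam10, which releases CX3CL1 and CXCL16 from the membrane, was 32189.6 to 41016 in D-LEC, 26546 to 31068 in LN-LEC and 20515 to 23780.4 in LN-BEC. Adam17, which does so in stimulated cells, was 5846 to 6225 in LN-LEC, 5336 to 5629.7 in LN-BEC and 4262 to 4470.1 in D-LEC. Mmp9, a gelatinase that trims chemokines, was 3799 to 6502 in LN-LEC against 19.03 to 203 in LN-BEC and 1.65 to 11.4 in D-LEC (log2 LN-LEC minus LN-BEC of 5.95 ± 0.73, adjusted p = 3.40e-04). Pf4, a chemokine of platelets that the name rule leaves out, was 1209 to 1756 in LN-BEC, 779 to 969.9 in LN-LEC and 46.3 to 110.2 in D-LEC. Ppbp, the other chemokine listed outside the name rule, was 18.4 to 25.1, 0 to 5.65 and 31.4 to 101 in the same order. Ppbp thus had its highest level in D-LEC, where it passed the test as higher than in LN-LEC. Of the 4 platelet markers, Itga2b was 7749 to 11140.0 in LN-LEC, 209 to 568 in LN-BEC and 66.9 to 154 in D-LEC, and Gp1ba was 157 to 278, 28.9 to 39.8 and 11.02 to 19.8 in the same order. Gp6 and Gp9 were at 0 in every LN-LEC library, and Gp9 was at most 11.02 in any library. The part of platelet RNA in the Pf4 values was not tested.

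**Figure D4:**
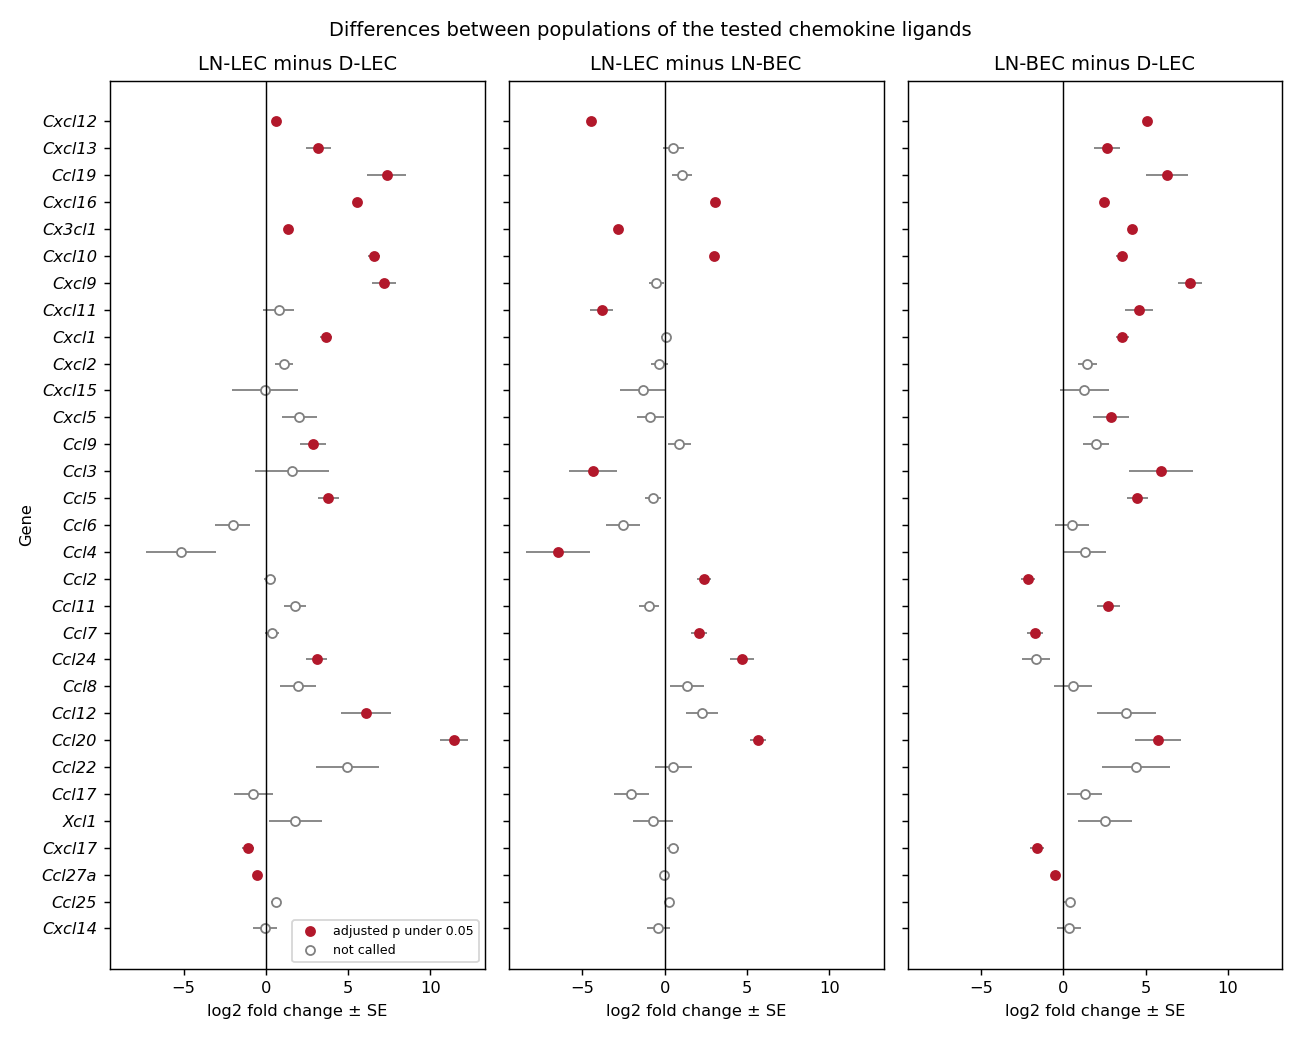
Log2 fold change with its standard error for the 31 tested chemokine ligands (y axis) in the 3 comparisons (panels, first population minus second), in filled red where the adjusted p was under 0.05. Most filled points lie to the right of 0 in both comparisons with D-LEC and on both sides between LN-LEC and LN-BEC, and points of members at 0 in one population depend on the prior count of the fit.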

How the data were processed

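The authors amplified RNA of sorted cells with the Ovation RNA-Seq System V2, sequenced pairs of 100 bases on an Illumina HiSeq, trimmed the reads and aligned them to mm9 with STAR. The deposited values are raw counts of fragments per gene symbol from featureCounts 1.4.4, without strand, and fragments mapped to several places or to 2 genes were left out. All 10 libraries were used, and 0 count columns were unmapped. Replicate numbers follow deposit order and pair nothing. The 3819 predicted or clone symbols were left out. Genes with a mean normalised count (DESeq2 1.42.0 size factors) of at least 1 in 1 population were fitted together with edgeR 4.0.16 (R 4.3.3, TMM, quasi-likelihood, 1 mean per population), with Benjamini-Hochberg adjustment over all genes tested within each of the 3 comparisons. Errors of log2 differences are standard errors. Intervals and floors cover counting error only. The fit was tested on simulated data. Members were given per library where they passed a test and reached a mean of 100, as were Ccl19 and the Ccl21 genes, and pathway genes were named at a mean of 500. A few pathway genes were left out of the lists and are not reported here. Other genes named with values were chosen after their values were seen. Members and lists were chosen with earlier results of these data known. Alternatives were other scaling, DESeq2's Wald test, 2 other filters, all symbols kept, 2 populations at a time, a fold of at least 5 and left-out libraries.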

Additional observations from a re-analysis of the deposited data

Results flagged for a closer look

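In 3 of the 30 ligands examined, 1 of the 4 LN-LEC libraries stood apart from the other LN-LEC libraries by Dixon's criterion. Chance meets it in about 1 of 20 groups of normally distributed values, a rate that need not hold for counts. Cxcl9 was 6127 normalised counts in LN-LEC replicate 3, against 1799 to 2315 in the other libraries of that population, and Cxcl10 was highest in the same library. Ccl19 was 35.0 in LN-LEC replicate 1, against 12.7 to 15.8 elsewhere in LN-LEC. Xcl1 was 4.40 in LN-LEC replicate 4 and 0 in the others, a case in which any value above 0 meets the criterion.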

How the results depend on the processing

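Of 44 calls of a member in a comparison, 34 passed under each of the 17 settings that gave a value, 10 lost significance under at least 1, and 0 changed direction. The number of members higher in D-LEC than LN-LEC was 2, and it was 4 with LN-BEC replicate 3 and LN-LEC replicate 4 left out together and 0 at a fold of at least 5. The number above LN-LEC in LN-BEC was 5, and 3 with only the 2 populations compared. It was also 3 with the filter of filterByExpr, under which Ccl3 and Ccl4 had no value. The number above LN-BEC in D-LEC was 4, and 0 at a fold of at least 5, which asks for a larger change by construction. With each library left out in turn these counts ranged from 0 to 3, from 3 to 5 and from 2 to 5, while the count was 13 to 15 for LN-LEC over D-LEC, 11 to 15 for LN-BEC over D-LEC and 6 to 9 for LN-LEC over LN-BEC. The cause of the other moves was not tested. No scaling moved the median of all genes by 0.1 on the log2 scale. No paired analysis was possible because the labels carry no replicate numbers that populations share. Members counted by 0 to 3 fragments in a population are limited by depth.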
